A study of Mus musculus with 2 samples.

Results

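The genes described here are the splicing factor and RNA helicase families of the mouse, taken by symbol. They are all protein-coding RefSeq genes on chromosomes 1 to 19 and X whose symbols begin with Srsf, Tra2, Hnrnp, Sf3a, Sf3b, U2af, Snrp, Prpf, Ddx, Dhx or Rbm. There were 167 such genes among 21631 coding genes. Each was scored in a single list of 7680 peaks from chromatin immunoprecipitation and sequencing with an anti-Nr4a2 antibody, of which 7648 lay on these chromosomes. The cells were BV2, an immortalised mouse microglial line, and Nr4a2 is an orphan nuclear receptor that binds DNA as a transcription factor. The libraries were 1 of immunoprecipitated DNA and 1 of input DNA from the same line with no antibody. The library names in the file header carry the tag H2O2 for both libraries, whereas the labels give no treatment. A peak list measures no RNA, so the identity of the cells could not be checked against microglial markers. After duplicate removal the immunoprecipitated library held 20365794 tags and the input 22520884. With no replicates, no value below has an error between cultures.

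Most introns are removed from pre-mRNA by the spliceosome, a set of small nuclear ribonucleoproteins (snRNPs) and many further proteins. SR proteins mostly bind exons and favour their inclusion, and many hnRNP proteins act against them. U2AF and the SF3 complexes of the U2 snRNP mark the end of the intron and its branch point, and DEAD-box (Ddx) and DEAH-box (Dhx) proteins use ATP to remodel RNA in splicing, export, ribosome assembly and antiviral sensing. The Rbm symbols group RNA-binding proteins by a shared type of domain rather than by one complex. NR4A receptors are known to bind DNA as monomers at the word AAAGGTCA, called the NBRE.

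The families were chosen with results from this same list in view, and every score below comes from that list. The counts are therefore given as a description, without a test, beside the same count over all coding genes.

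In 4 genes a peak overlapped the promoter window, and at Ddx39b and Srsf10 it covered the listed start itself. Promoter windows, from 250 bases before to 50 after a listed start, came from RefSeq on GRCm38.p6 and covered 144 of the 167 genes. A peak overlapped such a window at Ddx39b, Srsf10, Dhx33 and Rbm15b, which is 4 of 144 genes (2.78%), where percent called over all coding genes with a window was 0.648. This contrast rests on 4 genes and is given without an interval or a share of genes in like surroundings. The overlapping peak at Rbm15b had a −log10 q of 0.76, so its q was above 0.05. Ddx39b encodes a helicase of spliceosome assembly and mRNA export, Srsf10 an SR-type splicing factor, Dhx33 a DEAH-box helicase, and Rbm15b a protein of the complex that methylates adenosine in mRNA. The bases before the listed start are shown for 3 of them because the peak covers part of this stretch, and capitals mark the bases under the peak. They are read in the direction of the gene, from chr17:35241496-35241745 on the + strand for Ddx39b, chr4:135855821-135856070 on the + strand for Srsf10 and chr9:106887076-106887325 on the - strand for Rbm15b.
Ddx39b: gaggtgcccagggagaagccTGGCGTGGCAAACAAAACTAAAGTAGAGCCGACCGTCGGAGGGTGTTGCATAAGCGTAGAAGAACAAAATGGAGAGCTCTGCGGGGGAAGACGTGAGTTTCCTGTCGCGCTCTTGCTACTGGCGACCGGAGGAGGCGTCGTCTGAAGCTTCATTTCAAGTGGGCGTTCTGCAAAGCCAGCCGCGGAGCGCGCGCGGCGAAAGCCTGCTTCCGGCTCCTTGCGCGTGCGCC
Srsf10: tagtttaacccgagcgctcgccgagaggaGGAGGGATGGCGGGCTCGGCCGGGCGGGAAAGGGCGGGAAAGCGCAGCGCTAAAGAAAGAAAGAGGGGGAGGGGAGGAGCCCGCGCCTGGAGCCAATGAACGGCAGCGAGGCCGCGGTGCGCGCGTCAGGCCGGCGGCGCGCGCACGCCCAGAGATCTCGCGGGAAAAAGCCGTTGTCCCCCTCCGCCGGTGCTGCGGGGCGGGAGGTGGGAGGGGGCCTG
Rbm15b: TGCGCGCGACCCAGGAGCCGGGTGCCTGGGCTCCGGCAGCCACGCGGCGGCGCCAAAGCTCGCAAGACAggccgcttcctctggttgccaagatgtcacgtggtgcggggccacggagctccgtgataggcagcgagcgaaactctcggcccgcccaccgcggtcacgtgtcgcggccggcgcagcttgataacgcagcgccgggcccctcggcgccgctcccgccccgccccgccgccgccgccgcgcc

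The peak covered 230 of the 250 bases at Ddx39b and 221 at Srsf10, but only the 69 bases farthest from the start at Rbm15b. At Dhx33 the overlap with the window was 45 bp, all after the listed start, so none of it is printed. The summit lay 125 bp before the start of Ddx39b, 68 bp before that of Srsf10, 258 bp before that of Rbm15b and 71 bp after that of Dhx33. Guanine and cytosine made up 63.3% of the window at Ddx39b, 71.3% at Srsf10, 75.3% at Rbm15b and 59.7% at Dhx33, against a median of 60% over the 185 windows of the families and 56.7% over 21045 windows of coding genes.

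None of these 4 windows held the NBRE, searched as AAAGGTCA on both strands. The windows held 45 bp of the 165 bp peak at Dhx33 and 69 bp of the 230 bp peak at Rbm15b. The rest of those peaks was not searched. Of the 185 family windows 2 held it (1.08%), against 1.32% of all 21045 windows. These were at Sf3b3 and Snrpf, whose words are shown in capitals within the surrounding bases before the start, from chr8:110846962-110847021 on the - strand and chr10:93589659-93589702 on the - strand.
Sf3b3: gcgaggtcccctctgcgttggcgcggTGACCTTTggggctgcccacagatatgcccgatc
Snrpf: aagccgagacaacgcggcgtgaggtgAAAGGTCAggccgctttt

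Sf3b3 encodes a subunit of the SF3B complex and Snrpf a core protein of the snRNP ring. In Sf3b3 the word is reversed and begins 192 bases before the start, and the one peak scored for the gene lay 34118 bp from that start, near the other end. At Snrpf the word begins 18 bases before the start, and the nearest summit was 1100 kb away. The shorter word AGGTCA, which lies within the NBRE, was in 10.8% of the family windows and in 14.6% of all windows. Dhx33 was the only one of the 4 genes above with this word in its window. There the word begins 64 bases before the start, outside the bases under the peak. A direct repeat of AGGTCA with 5 bases between the copies, a site known for Nr4a2 with the retinoid X receptor, was in none of the family windows and in 1 of all the windows.

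Over all families, genes with a peak close to an end were somewhat more frequent than among coding genes, while the broader scores were at the background. A summit lay within 1000 bp of either end of 7 of the 167 genes (4.19%, exact 95% interval 1.7 to 8.45), where percent called over all coding genes was 2.39. Within 3000 bp there were 14 genes (8.38%, 4.66 to 13.7), where percent called was 5.18. Both background values lie inside the intervals, which cover counting error only. A summit lay inside 19 genes (11.4%, 6.99 to 17.2), where percent called was 11.8. By distance to a gene end, 35 of the genes were the coding gene closest to some peak (21.0%, 15.1 to 27.9), the score called nearest gene below, where percent called was 21.3. The last 2 shares are near the background and are no result about the families.

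**Figure D1:**
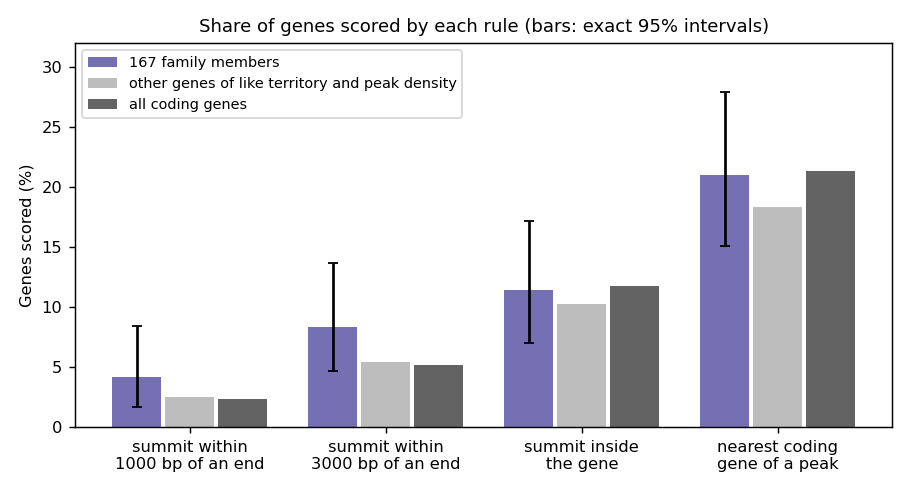
Percent of genes scored (y axis) by each of 4 rules (x axis) for the 167 family genes, for other coding genes of like territory and local peak density, and for all coding genes. Whiskers are exact 95% intervals on the family share. The family share within 1000 bp is 4.19% against 2.39% of all coding genes, and the share by nearest gene is 21.0% against 21.3%.

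The genes sit in denser surroundings than the average coding gene. Their median territory, the stretch over which an end of the gene is the nearest coding gene end, was 36.0 kb against 45.6 kb over all coding genes, and the median number of peaks in their 5 Mb bin was 17 against 14. Their median length was 17.8 kb against 17.3 kb. Other coding genes were therefore weighted to the same deciles of territory and of peaks per bin. At the rate of such genes the expected counts were 4.16 within 1000 bp, 9.05 within 3000 bp, 17.2 inside the gene and 30.6 by nearest gene, beside 7, 14, 19 and 35 observed. All 4 observed counts were above these values, and in each case the share of like genes lay inside the interval of the family share.

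Per length of sequence, the joined windows of 1000 bp around the ends of family genes held 8 summits in 0.666 Mb, which is 12 per Mb (exact Poisson 95% interval 5.19 to 23.7), against 5.82 per Mb (5.3 to 6.38) around all coding gene ends. With 3000 bp the densities were 8.15 per Mb (4.66 to 13.2) and 4.58 per Mb (4.3 to 4.88). Within the gene bodies they were 3.68 per Mb (2.3 to 5.56) and 3.38 per Mb (3.27 to 3.5). The coding gene value lay inside the family interval for 1000 bp and for gene bodies, and just below it for 3000 bp, where the family windows held 16 summits in 1.96 Mb. These densities were not weighted for territory or local peak density. The intervals also treat summits as independent, although Rbm15b and Hnrnpu each had a pair of them within 3000 bp of an end.

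Over all coding genes the shares rose with local peak density for every score. In bins with 0 to 8 peaks, 1 of 51 family genes had a summit within 3000 bp of an end, against 1.1% of coding genes in such bins. In bins with 9 to 21 peaks it was 3 of 52 (5.77%), against 4.94%, and in bins with 22 peaks or more it was 10 of 64 (15.6%), against 9.77%. By nearest gene the family counts in these 3 ranges were 2 of 51, 14 of 52 and 19 of 64, and the shares of all coding genes were 8.67%, 23.0% and 33.3%. The part of density in the differences between families was not tested.

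Family genes lay nearer to a summit than coding genes in general over most of the range. The median distance from an end to the nearest summit was 59.6 kb (quartiles 19.1 and 179 kb) against 98.2 kb (28.4 and 307 kb). A summit was within 5000 bp of 13.2% of family genes and 7.75% of coding genes, and within 100 kb of 62.9% and 50.5%. No summit lay within 100 kb of an end of 62 family genes (37.1%), against 49.5% of coding genes.

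**Figure D2:**
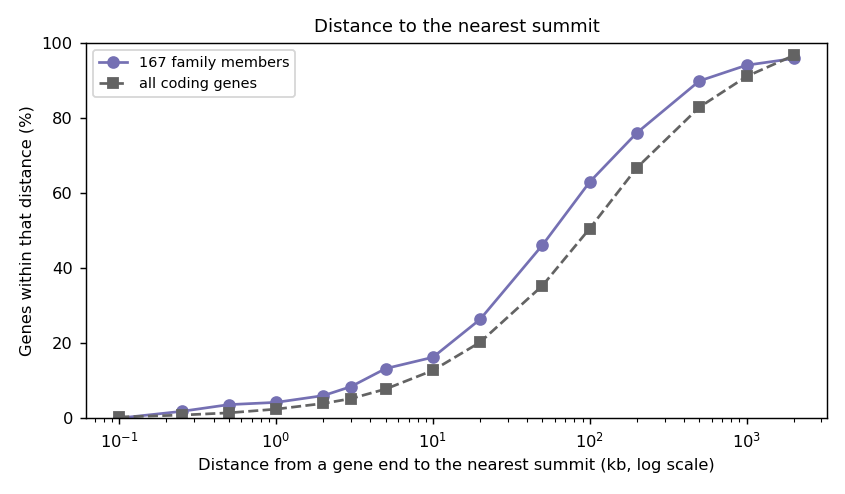
Percent of genes (y axis) with a summit within a given distance of either end (x axis, kb, log scale), for the 167 family genes and all coding genes. The family curve is above the other from 0.25 kb to 1000 kb, with 62.9% against 50.5% at 100 kb. The curves are not weighted for territory or local peak density.

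The strongest peak within 1000 bp of a family gene was beside Prpf40b, which encodes a protein associated with the U1 snRNP. It spanned chr15:99317100-99317309 and had a pileup of 17 ChIP tags over the summit, a deposited fold enrichment of 5.61 over the local background and a −log10 q of 4.33. The summit was 155 bp past the last end of Prpf40b and 37 bp from the last end of Fmnl3, a formin gene on the opposite strand, so it was counted for Prpf40b by window but not by nearest gene. A similar arrangement was found at Ddx55, a DEAD-box gene known in ribosome assembly. Its peak at chr5:124570172-124570365 had 11 tags, a fold of 4.31 and a −log10 q of 1.76, and lay 560 bp past the last end of Ddx55 and 6 bp inside the last end of Eif2b1, a translation factor gene. In both places the 2 genes run towards each other.

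The other 5 genes with a summit within 1000 bp had it at the first end, where transcription starts. The peak at Ddx39b, at chr17:35241516-35241781, had 13 tags, a fold of 4.98 and a −log10 q of 2.69. That at Srsf10, at chr4:135855850-135856074, had the same 13 tags but a fold of 3.77 and a −log10 q of 1.74, since the background there was higher. Dhx33 had 12 tags, a fold of 4.67 and a −log10 q of 2.18 at chr11:71004263-71004427.

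Rbm15b had a pair of peaks before its start. The nearer one, at chr9:106887257-106887486, had 8 tags and a fold of 3.23 with a −log10 q of 0.76. The farther one, at chr9:106887701-106887905, had 11 tags, a fold of 4.31 and a −log10 q of 1.76, and its summit, 727 bp from Rbm15b, was also within 1000 bp of Manf, which encodes a neurotrophic factor of the endoplasmic reticulum. Only the farther one had a q of at most 0.05, so the peak over the Rbm15b window is the weaker of the pair. Ddx5, which encodes an RNA helicase that also acts as a transcriptional coregulator, had a peak of 8 tags, 3.23-fold and a −log10 q of 0.76 at chr11:106789501-106789664. That summit lay 351 bp before Ddx5 and inside its neighbour Cep95, also within 1000 bp of an end of Cep95. Of the 7 genes, 6 kept a summit within 1000 bp when only peaks with a q of at most 0.05 were used, the exception being Ddx5, and percent called over all coding genes was then 1.2.

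**Figure D3:**
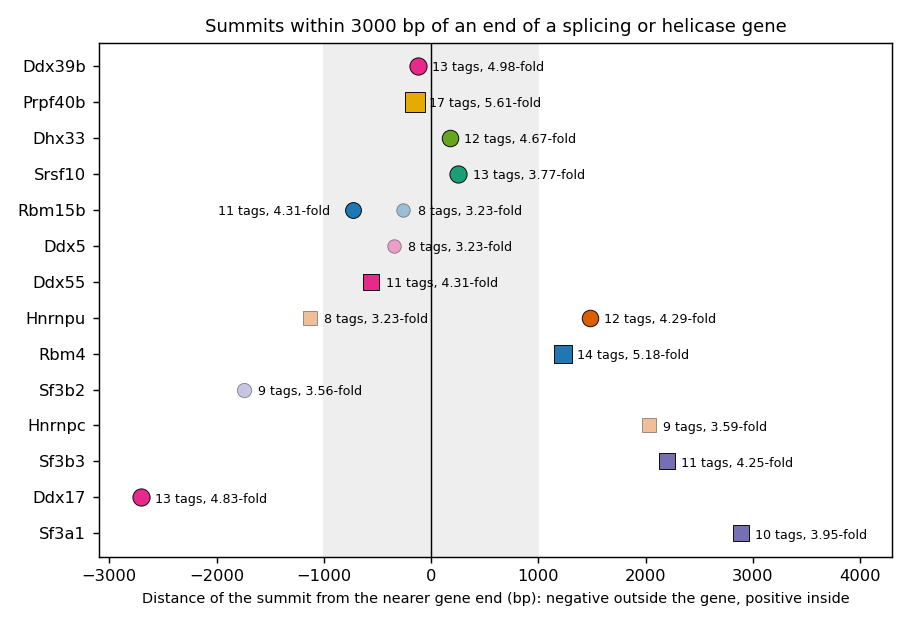
Position of each of 16 summits within 3000 bp of an end of 14 family genes (rows), as distance from the nearer end in bp (x axis, negative outside the gene). Circles mark the first end and squares the last end, area grows with the pileup, colours stand for families as in the plot of shares by family, pale symbols have a q above 0.05, and the grey band spans 1000 bp to either side. Summits at Ddx39b, Dhx33 and Srsf10 are within 251 bp of the first end, and the tallest, at Prpf40b, is at the last end.

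Between 1000 and 3000 bp there were 7 further genes, 3 of them in the SF3 family. Hnrnpu, which encodes a nuclear scaffold protein that binds RNA, had a peak of 12 tags and 4.29-fold at chr1:178337269-178337553. Its summit was 1480 bp inside the gene record but 404 bp from the listed start. A second peak of 8 tags, 3.23-fold and a −log10 q of 0.76 lay 1134 bp past the last end of Hnrnpu and inside its neighbour Cox20. Rbm4, a splicing regulator gene, had 14 tags, a fold of 5.18 and a −log10 q of 3.15 at chr19:4785431-4785652, 1226 bp inside its last end. That summit was also inside Gm21992, a longer record that spans Rbm4.

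The SF3 genes encode the part of the U2 snRNP that holds the branch point. Sf3b3 had 11 tags and a fold of 4.25 at chr8:110812629-110812937, 2194 bp inside the last end. Sf3a1 had 10 tags and a fold of 3.95 at chr11:4179537-4179712, 2887 bp inside the last end. Sf3b2 had a peak of 9 tags, 3.56-fold and a −log10 q of 1.08 that lay 1745 bp before its start but nearer to Gal3st3, a sulfotransferase gene. A taller peak of 14 tags and 4.39-fold, with a width of 652 bp, was inside Sf3b2 at chr19:5278683-5279334, 5.28 kb from the last end. Sf3b1, whose product contacts the branch point directly, had a peak of 7 tags, 2.85-fold and a −log10 q of 0.54 inside it, 9.48 kb from the last end.

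Hnrnpc, whose product binds uridine tracts, had a peak of 9 tags, 3.59-fold and a −log10 q of 1.08 at chr14:52075085-52075413, 2029 bp inside its last end. Ddx17, the close relative of Ddx5, had 13 tags, a fold of 4.83 and a −log10 q of 2.64 at chr15:79549340-79549560, 2705 bp before its start. Near the 1000 bp limit, Ddx55 at 560 bp was the last gene inside, and Hnrnpu and Rbm4 at 1134 and 1226 bp were the first outside. Near the 3000 bp limit, Sf3a1 at 2887 bp was inside, and Rbm46, Tra2b, Ddx24 and U2af1 at 3022, 3323, 4146 and 4168 bp were outside.

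Summits near an end lay at both first and last ends. Of the 16 summits within 3000 bp, 9 (56.2%) were nearer to the first end and 7 to the last, against 59.1% at the first end among 956 pairs of a coding gene and a summit. Within 1000 bp, 6 of the 8 summits were at the first end, 2 of them at Rbm15b. These 8 are among the 16, and the first-end share of all coding genes is not given for this window. Of the 16 summits, 7 lay inside the gene and 9 outside. Counting only distance to a listed start, 6 of 144 family genes had a summit within 1000 bp (4.17%), where percent called over all coding genes with a listed start was 1.76. They were Ddx39b, Ddx5, Dhx33, Hnrnpu, Rbm15b and Srsf10. Within 3000 bp of a listed start Ddx17 and Sf3b2 joined them, which made 8 (5.56%), where percent called was 3.61.

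The families differed in their counts, with wide intervals. Within 3000 bp of an end, SF3 had 3 of 9 genes (33.3%, exact 95% interval 7.49 to 70.1), DDX 4 of 36 (11.1%, 3.11 to 26.1), hnRNP 2 of 21 (9.52%, 1.17 to 30.4) and RBM 2 of 44 (4.55%, 0.555 to 15.5). SR proteins and PRPF had 1 of 13 each, DHX 1 of 16, and snRNP and U2AF 0 of 12 and 0 of 3, with exact upper limits of 26.5% and 70.8%. The interval of SF3 lay above the 5.18% of all coding genes. SF3 genes lay in bins with a median of 24 peaks. Like genes by territory and density gave an expected share of 6.12% for SF3, or 0.55 genes, which is also below the lower limit of 7.49%. One of the 3 SF3 genes, Sf3b2, was counted through a peak that is nearer to Gal3st3 and has a q above 0.05, and without it 2 of 9 were left. The highest of 9 families was singled out after the values were seen, and the difference between families was not tested. By nearest gene SF3 had 4 of 9 (44.4%, 13.7 to 78.8), RBM 11 of 44 (25%), DHX 4 of 16 (25%), SR proteins 3 of 13 (23.1%), hnRNP 4 of 21 (19%), DDX 6 of 36 (16.7%), snRNP 2 of 12 (16.7%), U2AF 1 of 3 and PRPF 0 of 13, where percent called over all coding genes was 21.3. Each of these intervals includes 21.3%.

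**Figure D4:**
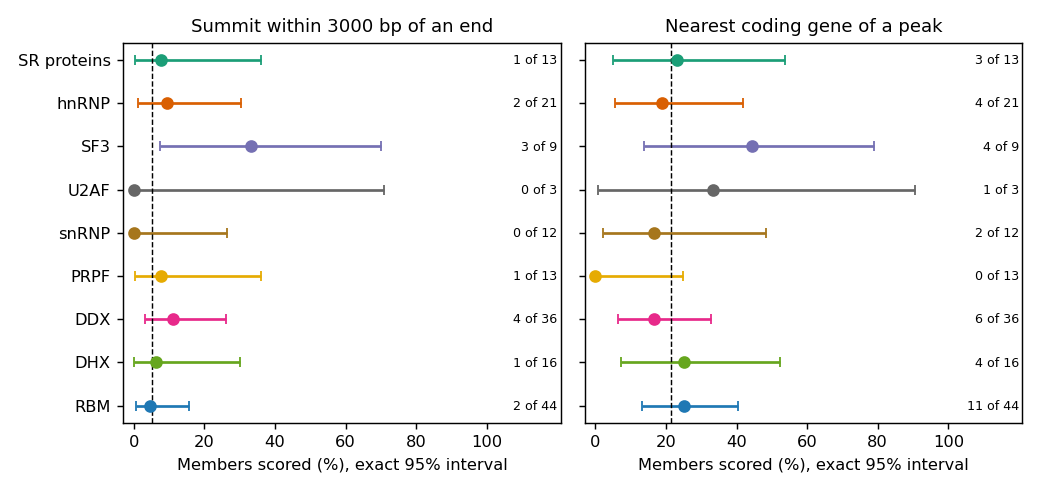
Percent of the members of each family (rows) with a summit within 3000 bp of an end (left) and as nearest coding gene of a peak (right), with exact 95% intervals and the count at the right edge. Dashed lines are the shares of all coding genes, 5.18% and 21.3%, and only the interval of SF3 in the left panel lies wholly above its line.

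Another 23 genes were scored only by a summit farther inside or by nearest gene. Of these 11 held a summit inside the gene, and 12 were only the nearest coding gene of a peak. Tra2b, which encodes an activator of exon inclusion, stood first with 15 tags, a fold of 5.70 and a −log10 q of 3.93 at chr16:22247765-22247971, inside the gene and 3.32 kb from its last end. This was the peak of highest fold scored for any of the 167 genes. U2af1, whose product recognises the end of the intron, had a peak of 10 tags and 3.95-fold 4.17 kb past its last end.

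Of the 44 RBM genes 8 had a summit inside (18.2%, exact 95% interval 8.19 to 32.7), where percent called over all coding genes was 11.8 and the share of like genes was 13.2%. The highest share for this score was that of SF3, with 4 of 9 (44.4%, 13.7 to 78.8), where the share of like genes was 7.56%. It was picked out after the values were seen and was not tested. The peak inside Sf3b1, 1 of these 4 genes, had a −log10 q of 0.54. Rbm20, a splicing regulator known for titin, held a pair of peaks with 11 and 10 tags and folds of 4.31 and 3.95. Rbm39, a splicing coactivator gene, held a pair with 10 and 8 tags and folds of 3.95 and 3.07, and Rbm46, a germ cell gene, held a pair of 10 tags each with folds of 3.95 and 2.96. In Rbm39 and Rbm46 only the peak of 3.95-fold had a q of at most 0.05. Rbm41, Rbms1, Rbm5 and Rbm19 each held a peak of 8 or 9 tags with a fold from 3.23 to 3.54 and a −log10 q of 1.08 or less. Among helicase genes, Ddx60, an interferon-induced antiviral factor, held a peak of 11 tags and 4.31-fold. Dhx8, which releases spliced mRNA from the spliceosome, held one of 9 tags and 3.59-fold with a −log10 q of 1.08.

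The 12 genes scored by nearest gene alone lay 4.17 kb to 116 kb from the closest peak assigned to them. Dhx35 had a peak of 12 tags and 4.63-fold 606 kb away and another of 11 tags and 4.31-fold at 71.4 kb. Snrpn, the imprinted gene of a core snRNP protein, had one of 11 tags and 4.31-fold at 116 kb, inside the noncoding record Snhg14. Hnrnpll, a regulator of Cd45 splicing, had 11 tags and 4.31-fold at 27.2 kb. Ddx18 had a peak of 10 tags and 3.95-fold at 54.2 kb and one of 9 tags at 834 kb, and Dhx40 had 10 tags and 3.92-fold at 41.1 kb. The remaining 6 were Snrpb2, Srsf6, Ddx10, Rbm15, Rbm34 and Hnrnpa1l2-ps2, a record of coding type with a pseudogene name. Their peaks had 7 to 9 tags and folds of 2.79 to 3.59, all with a q above 0.05. Both peaks assigned to Hnrnpa1l2-ps2 lay inside another coding gene, Cdh18. Of the 44 peaks nearest to a family gene, 5 were outside it and over 100 kb away.

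The other 130 genes had none of the 4 scores. Several of the best-known splicing genes were among them. The nearest summit was 161 kb from Srsf1, 469 kb from Srsf2 and 144 kb from Srsf3, which encode classical SR proteins. It was 655 kb from U2af2, the partner of U2af1, and 4250 kb from Hnrnpa2b1, the largest distance in the families. The bins of U2af2 and Hnrnpa2b1 held 1 and 0 peaks, while that of Srsf3 held 30.

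Peaks scored for the families were of the ordinary height of the list. The 47 different peaks had pileups of 7 to 17 tags with a median of 10, the same median as the 7648 peaks on these chromosomes. Their folds ran from 2.79 to 5.70 with a median of 3.92, against 3.59 in the list, and their median width was 199 bp against 190 bp. A q of at most 0.05 was reached by 25 of 47 (53.2%, exact 95% interval 38.1 to 67.9), against 50.5% of all. The local background equalled the genome-wide level (1.786 tags, tolerance 0.002) in 25 of 47 (53.2%) and in 49.4% of all peaks, and at such peaks the fold depends on the tag number alone. The 16 peaks within 3000 bp of an end had a median of 11 tags. Of these 16, 11 had a q of 0.05 or less (68.8%, 41.3 to 89.0), 5 of 0.01 or less and 2 of 0.001 or less. Those 2 were at Prpf40b and Rbm4. Of the 7648 peaks, 3864 (50.5%), 1167 and 182 reached these limits. With peaks of q 0.05 or less alone, 11 of the 167 genes had a summit within 3000 bp of an end, 12 inside and 21 by nearest gene, where percent called was 2.7, 6.83 and 12.9. With q 0.01 or less, 3 genes were left within 1000 bp (Ddx39b, Dhx33 and Prpf40b), 5 within 3000 bp (with Ddx17 and Rbm4), 4 inside and 7 by nearest gene, where percent called was 0.388, 0.878, 2.3 and 4.72. Among all 37 scored genes, 23 had at least 1 peak with a q of at most 0.05 and 14 had none. The same split over all coding genes was not computed.

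**Figure D5:**
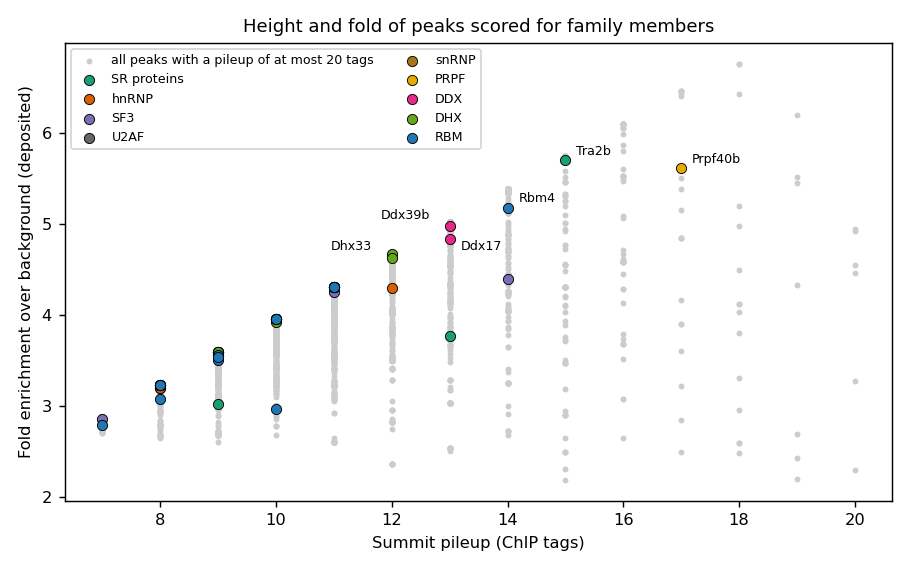
Deposited fold enrichment (y axis) against summit pileup in ChIP tags (x axis) for all peaks of at most 20 tags (grey) and for the 47 peaks scored for family genes, coloured by family. The family peaks run from 7 to 17 tags and from 2.79-fold to 5.70-fold, and Tra2b at 5.70-fold and Prpf40b at 17 tags are the highest of them. A fold of at least 5 was reached by 3 of the 47 and by 288 of the 7648 peaks on chromosomes 1 to 19 and X.

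Other genes of splicing and RNA processing outside these symbols were taken as 7 lists, of which all but 1 gene matched a coding record. Within 1000 bp of an end there were 4 of 118 (3.39%), within 3000 bp 8 (6.78%), with a summit inside 16 (13.6%) and by nearest gene 28 (23.7%), beside 2.39%, 5.18%, 11.8% and 21.3% of all coding genes. The genes within 1000 bp were Thoc1 of mRNA export (10 tags, 3.95-fold, 0.153 kb), Smg6 of nonsense-mediated decay (11 tags, 4.27-fold, 0.306 kb), Sugp1 (9 tags, 3.36-fold, 0.841 kb) and Gemin2 of snRNP assembly (8 tags, 3.03-fold, 0.931 kb). The peaks at Sugp1 and Gemin2 had a −log10 q of 1.08 and 0.76. Within 3000 bp, Phf5a, whose product is a further subunit of SF3B, had a peak of 15 tags, 4.76-fold and a −log10 q of 2.84 inside the gene, 2.19 kb from an end. Eif4a1, a translation helicase gene, had 11 tags and 4.27-fold at 1.83 kb. Thoc5 and the SR kinase gene Clk3 had 7 and 9 tags with a −log10 q of 0.54 and 1.08.

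The list of splicing regulators had 10 of 22 genes by nearest gene (45.5%), where percent called over all coding genes was 21.3. It had 5 with a summit inside (22.7%, against 11.8%), but none within 3000 bp (against 5.18%). The first 2 shares were the highest of the 7 lists, were singled out after the values were seen and were not tested. No share of genes of like territory and density is given for these lists. The 10 by nearest gene were Celf1, Ewsr1, Mbnl3, Nono, Nova1, Ptbp2, Qk, Rbfox1, Rbfox2 and Tial1. The nearest summits were 3.50 kb from an end of Nono and 307 kb from Ptbp2, with folds between 2.69 at Ewsr1 and 4.31 at Mbnl3 and Ptbp2. Of the other lists, LSm and snRNP assembly had 3 of 17 by nearest gene, further spliceosome proteins 6 of 32, and exon junction and export 2 of 12. SR kinases had 2 of 7, end processing 3 of 15, and RNA decay and other helicases 2 of 14, beside 21.3% of all coding genes. Among these other lists, Luc7l of the U1 snRNP had the highest fold, 5.02, with 14 tags, 3.29 kb from an end.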

How the data were processed

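Reads from 1 anti-Nr4a2 ChIP library and 1 input library of BV2 cells were aligned with Bowtie2 to mm10, and ChIPseeker and MACS2 2.2.6 are also listed, per the submitters' processing notes. The file header names MACS 2.1.4 and gives a p-value cutoff of 0.001, 1 tag kept per position and a fragment length of 164 bp. The deposited pileup is a signal, the coverage by extended ChIP tags. The −log10 p-value, the −log10 q-value and the fold enrichment, a ratio of pileup to local background, are the authors' deposited values, as are the width and summit in bp. The header says q would not be calculated, but values are present and were used as given.

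Genes, starts and promoter sequences came from RefSeq tables on GRCm38.p6, the assembly of mm10. Coordinates are 1-based. Gene ends are the limits of a gene record, and a strand was known for 144 of 167 members. Exons, introns and untranslated regions were not separated, and the bases under a peak outside the promoter windows were not used here.

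Summits were scored against gene ends (1000 and 3000 bp), gene bodies and nearest coding gene with Python 3.11.15, pandas 2.3.3, numpy 2.4.6 and scipy 1.17.1. The scoring was tested on simulated data. Like genes were weighted over deciles of territory crossed with deciles of peaks per 5 Mb bin. The members, lists and naming rule were chosen with earlier results of these data known. The rule named all members within 3000 bp of an end, then the others by fold and family, the genes beside each distance limit, genes named in earlier results, 5 well-known genes without a peak within 100 kb and scored genes of the other lists; the remaining scored members were named after their values were seen. Alternatives were other peak thresholds, windows, peak intervals, listed starts and assignments of peaks to genes. The 32 peaks on other sequences were left out. Intervals are exact Clopper-Pearson or Poisson 95% intervals and cover counting error only.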

Additional observations from a re-analysis of the deposited data

How the results depend on the processing

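The counts of 7 genes within 1000 bp, 14 within 3000 bp, 19 with a summit inside and 35 by nearest gene depend mainly on the peak threshold. With a q of at most 0.05 the first 2 stayed within 1.5 times (6 and 11), and the last 2 fell to 12 and 21. These 4 counts are 3.59%, 6.59%, 7.19% and 12.6% of the families, beside 1.2%, 2.7%, 6.83% and 12.9% of coding genes. With a q of at most 0.01 the 4 counts were 3, 5, 4 and 7. The family shares were then 1.8%, 2.99%, 2.4% and 4.19%, beside 0.388%, 0.878%, 2.3% and 4.72% of coding genes. With a q of at most 0.001 the counts were 1, 2, 2 and 2, and with a fold of at least 5 they were 1, 2, 2 and 2. The shares over all coding genes were 0.0786%, 0.143%, 0.384% and 0.809% at that q and 0.0971%, 0.217%, 0.536% and 1.26% at that fold. The stricter settings leave fewer peaks by construction (3864, 1167, 182 and 288).  A window of 5000 bp gave 22 genes and one of 10000 bp gave 27, where 7.75% and 12.7% of coding genes were called beside 13.2% and 16.2% of the families. Listed starts alone gave 8 genes within 3000 bp. In all, 17 of the alternative values differed by more than 1.5 times, and the other 14 did not. When a peak counted only for its nearest coding gene, 5 genes remained within 1000 bp, without Prpf40b and Ddx55, and 2.08% of coding genes were called. No paired analysis was possible because there is 1 library of each kind. Each peak scored for a family gene rests on 7 to 17 tags, which limits what a single peak can show.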

Other observations

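Further values describe the composition of the promoter windows of the families. The median ratio of observed to expected CpG was 0.876 over the 185 family windows and 0.574 over all 21045. The word GGGCGG (GC box) was in 57.3% of the family windows and 46.7% of all, CCAAT in 45.9% and 38.5%, and TATAAA in 11.9% and 12.7%, each on both strands. In the 20 windows of the 14 genes with a summit within 3000 bp of an end, the median CpG ratio was 0.961, and GGGCGG was in 8 windows (40.0%) and CCAAT in 10 (50%). Windows of 1 gene can overlap, and a matched word is a description and not a binding site.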
